A study of Mus musculus with 22 samples.

Results

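The boundaries described here lie at anchors of structural loops and at no anchor of a loop between cis-regulatory elements. A boundary is a 10 kb bin that the authors called as the edge of a chromatin domain. It was taken as a member when the midpoint of its bin lay within 20 kb of an anchor midpoint of a structural loop on the same chromosome and within 20 kb of no anchor of a dual-function loop or a CRE loop. Of 6376 boundaries, 1014 were members, between 24 on chromosome 17 and 101 on chromosome 2. The other boundaries were 1205 at dual-function anchors, 241 at both structural and CRE anchors, 441 at CRE anchors only, 251 at anchors of uncategorised loops only, and 3224 at no loop anchor. A structural loop has CTCF and cohesin at both anchors and a cis-regulatory element (CRE) at 1 anchor at most, so a member may still hold a CRE. Of the members, 326 also lay at an anchor of an uncategorised loop.

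The study asked how chromatin structure is rebuilt after mitosis when CTCF is absent. It used G1E-ER4, a subline of the GATA1-null mouse proerythroblast line G1E, in which each CTCF allele was fused to an auxin-inducible degron with mCherry, and a retrovirus supplied the OsTiR protein that auxin needs to degrade CTCF. Cells were arrested in prometaphase with nocodazole and released, with auxin added late in the arrest and kept throughout (+auxin) or with none (-auxin), and were sorted on mCherry and cell cycle stage. The assay was in situ Hi-C, in which neighbouring pieces of chromatin are joined and sequenced as pairs, in prometaphase cells (0 min after release), ana/telophase cells (30 min), early-G1 cells (60 min) and mid-G1 cells (120 min). Both mid-G1 conditions had 3 libraries and the other 6 conditions had 2. The ana/telophase cells came from a separately transduced population, in which the GFP delivered with OsTiR carried a mitotic degron, and the other stages from cells with plain GFP, so stage and population cannot be told apart there. The sample protocol gives a slightly shorter release for them than the sample labels. All groups share the arrest and the tagged CTCF, so the -auxin cells are not untagged cells. The series also holds 4 libraries made with triptolide, which play no part here.

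Cohesin is a ring-shaped complex that extrudes DNA into loops, and CTCF bound to DNA halts it. Because CTCF halts cohesin mainly from one side, loops tend to end at a pair of CTCF sites that point toward each other. A stalled cohesin also limits contacts across the site, which is read out in Hi-C as insulation, the mark of a boundary. In mitosis CTCF and cohesin largely leave the chromosomes of many cell types and loops and boundaries are lost, to be rebuilt on the way into G1.

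The letters that CTCF is known to prefer were looked up in the mm9 sequence (NCBIM37), since they give the direction in which a bound CTCF would face. The motif searched was CCNNNAGGNGGC on both strands, with N for any base. The sequences below show the match nearest to the anchor at both ends of 1 loop that joins a pair of members beside Dusp4, a phosphatase of MAP kinases, and Tnks, which encodes tankyrase. The pair was chosen, after its values were seen, as that of the strongest loop between members whose nearest matches face each other. Capitals mark the matched letters, each sequence reads 5′ to 3′ on the strand given, and the left match lies on the plus strand and the right match on the minus strand, so that both face into the loop.
Left anchor, chr8:35548154-35548213, plus strand, intergenic: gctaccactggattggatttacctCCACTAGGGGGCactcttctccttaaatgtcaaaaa
Right anchor, chr8:35879373-35879432, minus strand, in an intron of Dusp4: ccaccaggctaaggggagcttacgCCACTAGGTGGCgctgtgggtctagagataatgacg

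The boundary at the left end of this 330 kb loop (chr8:35530001-35540000, 144 kb from the nearest gene start, that of Gm4889) had strengths without auxin of 0.0929, 0.408, 0.657 and 1.01 from prometaphase to mid-G1, and with auxin of 0.0669, 0.149, 0.254 and 0.436. The boundary at its right end (chr8:35890001-35900000, over an exon of Tnks) had 0.0880, 0.553, 0.965 and 1.29 without auxin, and 0.0382, 0.331, 0.597 and 0.879 with auxin. The loop itself had a strength, the ratio of observed to locally expected contacts, of 1.20, 4.05, 4.87 and 5.62 without auxin and of 1.24, 2.46, 2.33 and 2.35 with auxin. Thus both ends were weaker with auxin at all 4 stages, by a log2 change in mid-G1 of -1.22 on the left and -0.55 on the right, and the ends of 1 loop differed in how much strength they kept.

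Further matches are shown at the anchor of the strongest structural loop of single members, namely for those with the most structural loops, 9 each, which were added after their values were seen, for members near the median change in mid-G1, and for 1 that lost nearly all its strength. Each is the match nearest to the anchor midpoint within 15 kb, and the nearest match is not always on the strand that faces the loop. The distances ran from 0.716 kb at Ece1 to 14.2 kb at Skap2 and 14.5 kb at Sdccag8. The matches in Rabgap1l, beside Ece1 and beside Skap2 face into the strongest loop and the other 3 face away from it. The members at Rabgap1l, Ece1, Nav2 and Sdccag8 have loops on both sides, so a match facing away may face another loop.
Boundary in Rabgap1l, chr1:162648047-162648106, minus strand, intron of Rabgap1l, right anchor: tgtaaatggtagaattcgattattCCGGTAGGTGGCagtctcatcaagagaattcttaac
Boundary in Ece1, chr4:137524254-137524313, plus strand, intergenic, left anchor: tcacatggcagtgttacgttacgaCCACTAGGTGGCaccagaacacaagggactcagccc
Boundary beside Nav2, chr7:56380721-56380780, minus strand, intergenic, left anchor: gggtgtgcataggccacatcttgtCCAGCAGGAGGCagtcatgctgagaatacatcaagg
Boundary 86.0 kb from Klf14, chr6:30981213-30981272, plus strand, intergenic, right anchor: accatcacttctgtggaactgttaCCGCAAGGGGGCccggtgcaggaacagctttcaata
Boundary in Skap2, chr6:51790727-51790786, minus strand, intergenic, right anchor: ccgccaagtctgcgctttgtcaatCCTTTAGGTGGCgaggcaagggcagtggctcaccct
Boundary in Sdccag8, chr1:178799426-178799485, plus strand, intron of Sdccag8, right anchor: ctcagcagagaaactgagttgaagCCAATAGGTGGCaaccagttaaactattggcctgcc

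Boundary strength (ΔIS) was used as deposited. It is the gap between the insulation score at the boundary and the top score in its neighbourhood, on a linear scale on which 0 means no insulation. The replicates of a condition were merged before the strength was computed, so each boundary has 1 value per condition. The changes below therefore compare merged values, these tables allow no test between treatments, and maps of single replicates were not analysed here. Medians are given with the standard deviation (SD) of the chromosome medians, over 20 chromosomes for the main groups. It describes the spread over the genome and not between cultures. In small subsets a chromosome holds few members or none, so there the SD largely reflects single boundaries and is a loose yardstick. The read depth behind a boundary is unknown from these tables. Boundaries and loops were called on the same maps, so the strength of the members without auxin is not independent of their choice. The authors also placed boundaries found without auxin at the local insulation minimum of the mid-G1 -auxin map. This placement favours a high -auxin value, most of all in mid-G1, and its part in the changes below was not tested.

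The members were nearly flat in prometaphase and gained most of their strength without auxin by early-G1. Without auxin the median strength of the 1014 members was 0.0908 ± 0.0151 in prometaphase and 0.391 ± 0.0627 at ana/telophase (SD of chromosome medians). It was 0.620 ± 0.109 in early-G1 and 0.753 ± 0.100 in mid-G1. The +auxin medians at the same stages were 0.0837 ± 0.00955, 0.230 ± 0.0485, 0.370 ± 0.0704 and 0.397 ± 0.0910. The prometaphase medians differed by less than their SD over chromosomes, and at the 3 later stages the +auxin median was below the lower quartile of the -auxin values, which was 0.242, 0.399 and 0.491. In mid-G1 single members ranged from 0.0299 to 2.18 without auxin and from 0.0116 to 1.91 with auxin. The median over all 6376 boundaries was 0.499 without auxin and 0.332 with auxin in mid-G1, below the members in both maps. Dual-function boundaries were stronger than the members, with 0.988 without and 0.618 with auxin. So were boundaries at structural and CRE anchors, with 0.962 and 0.618.

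**Figure D1:**
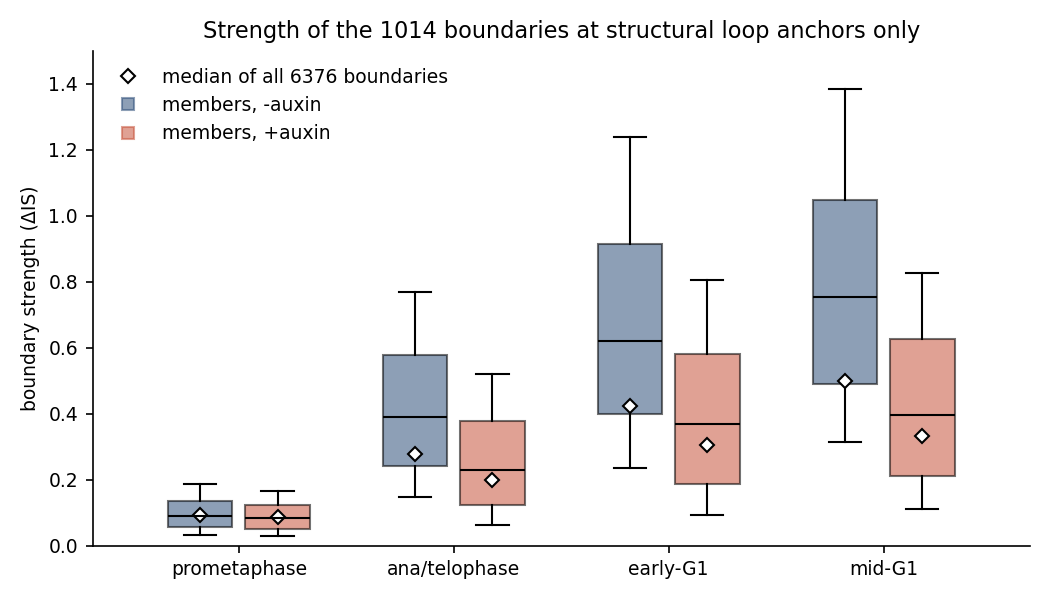
Boundary strength (ΔIS, vertical axis) of the 1014 members at 4 stages without and with auxin; boxes span the quartiles with a line at the median, whiskers reach the 10th and 90th percentiles, and diamonds mark the median of all 6376 boundaries. The boxes overlap in prometaphase, and in mid-G1 the member median is 0.753 without auxin and 0.397 with auxin.

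Most members were stronger in mid-G1 than in prometaphase in both treatments. Without auxin 1009 members, 99.5%, were so, against 89.6% of all boundaries, and 988 had at least 2-fold their prometaphase value, 97.4% against 78%. With auxin 965 were, 95.2% against 86.4%, and 851 had at least 2-fold, 83.9% against 70.8%. Among dual-function boundaries that last share was 92.1%. Counted on mean strengths, the members without auxin had covered 46.6% ± 3.94 of the distance between prometaphase and mid-G1 at ana/telophase and 84.0% ± 3.56 in early-G1 (SD over 20 chromosomes). With auxin they gained 25.0% ± 4.02, 46.0% ± 5.35 and 50.1% ± 4.08 of that same -auxin distance by ana/telophase, early-G1 and mid-G1. Dual-function boundaries came closer to their -auxin level, with 59.2% ± 4.52 in mid-G1, and boundaries at CRE anchors only came closest of the 3 groups, with 82.8% ± 10.0. The members were also slower than dual-function boundaries without auxin, since the latter had covered 91.4% ± 2.70 of their distance by early-G1.

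The change with auxin, log2(+auxin / -auxin), was small in prometaphase and larger at each later stage. Its median over the members was -0.14 ± 0.13 in prometaphase, -0.69 ± 0.12 at ana/telophase and -0.76 ± 0.14 in early-G1, and it was -0.89 ± 0.17 in mid-G1. Over all boundaries it was -0.09, -0.35, -0.34 and -0.48. In mid-G1 92.2% of members were weaker with auxin, against 75.5% of all boundaries and 87.7% of dual-function boundaries. The chromosome medians of the members ran from -1.28 on chromosome 16, with 35 members, to -0.65 on chromosome 17, with 24. The members that lost most by ana/telophase tended to be those that lost most in mid-G1, with a Spearman correlation of 0.71 over the 1014 members, while the prometaphase change gave 0.07. These correlations are across boundaries, which share maps and libraries, and are descriptions.

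Members weaker by at least 2-fold with auxin were counted at each stage and read against all boundaries. In prometaphase there were 190 members, 18.7% (95% Wilson interval 16.5 to 21.3), against 17.7% of all boundaries, so the members stood near the background. At ana/telophase 343 members, 33.8% (31.0 to 36.8), were weaker by 2-fold, against 19.3% of all boundaries. In early-G1 there were 394, 38.9% (35.9 to 41.9), against 20.9%, and in mid-G1 450, 44.4% (41.3 to 47.5), against 25.5%. The intervals cover counting error only. Of the 343 members weaker by 2-fold at ana/telophase, 294 were so in mid-G1 as well, 85.7% against 67.6% over all boundaries. A further 156 members, 15.4% against 12.5%, were weaker by 2-fold in mid-G1 but not at ana/telophase. The 483 members that were not weaker by 2-fold at any post-mitotic stage made up 47.6%, against 63.9% of all boundaries.

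Most members were weaker with auxin throughout, as were most boundaries at the other structural anchors. Weaker strength at all 3 post-mitotic stages was found for 849 members, 83.7% (81.3 to 85.9), against 54.3% of all boundaries, 79.6% (77.2 to 81.8) of dual-function boundaries and 77.6% (71.9 to 82.4) of those at structural and CRE anchors. Higher strength with auxin at all 3 stages was found for 49 members, 4.83%, against 10.7% of all boundaries. In mid-G1 7 members, 0.690%, were stronger by at least 2-fold, against 4.47% of all boundaries, 1.08% of dual-function boundaries and 0.830% of those at structural and CRE anchors, and the counting intervals of these 3 groups overlapped.

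The members had the lowest median change of the boundary groups after mitosis. In mid-G1 the median was -0.68 ± 0.11 for the 1205 dual-function boundaries, -0.62 ± 0.17 for the 241 at both structural and CRE anchors, -0.19 ± 0.12 for the 441 at CRE anchors only and -0.29 ± 0.08 for the 3224 at no loop anchor. The member median was lower than that of dual-function boundaries by 0.208 on the log2 scale, with an SD of 0.190 over chromosomes, and was lower on 17 of 20 chromosomes. Against boundaries at both structural and CRE anchors, it was lower by 0.271 ± 0.217 and on 19 of 20 chromosomes. Against CRE anchors only the difference was -0.69 ± 0.15, and against no loop anchor -0.59 ± 0.16, each with the members lower on 20 of 20 chromosomes. In prometaphase the members were lower than dual-function boundaries on 7 of 20 chromosomes. The differences from dual-function boundaries and from those with a CRE loop in addition were thus close to their spread over chromosomes, and those from CRE anchors only and from no loop anchor were several times that spread.

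**Figure D2:**
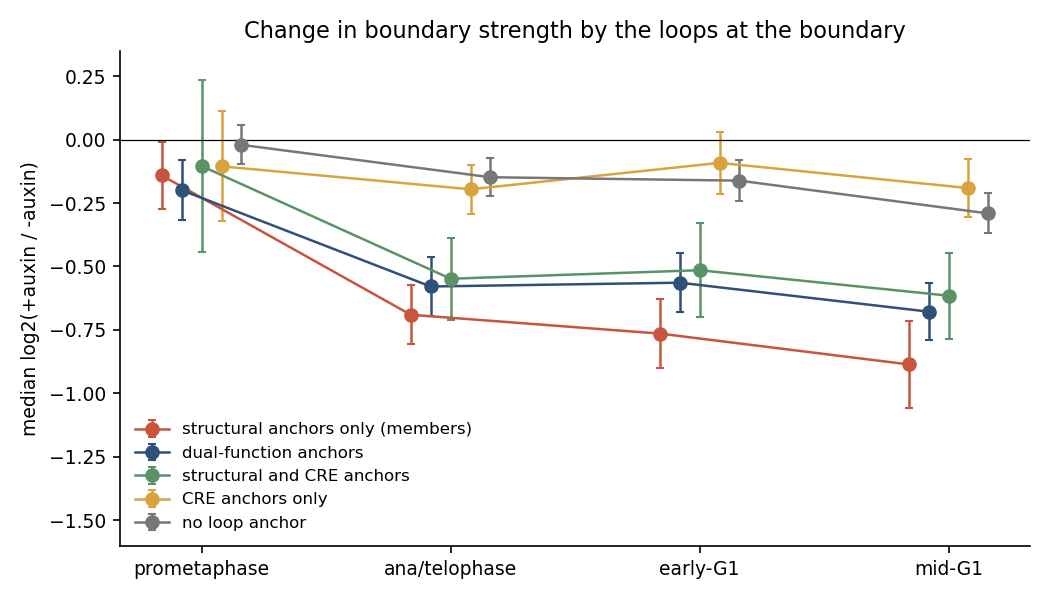
Median log2(+auxin / -auxin) of boundary strength (vertical axis) at 4 stages for boundaries grouped by the loops at them; bars are the SD of the chromosome medians. The groups overlap in prometaphase, and in mid-G1 the members lie at -0.89, below dual-function boundaries at -0.68 and boundaries with no loop anchor at -0.29.

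Since the groups differ in strength, they were also compared within 3 classes of equal size by the mid-G1 -auxin strength of all boundaries, divided at 0.275 and 0.748. In the strongest class the median change was -0.89 for 514 members, -0.72 for 861 dual-function boundaries, -0.43 for 179 at CRE anchors only and -0.53 for 312 at no loop anchor. In the middle class it was -0.91 for 420 members, -0.54 for 314 dual-function boundaries, -0.10 for 224 at CRE anchors only and -0.30 for 980 at no loop anchor. In the weakest class it was -0.76 for 80 members, 0.33 for 30 dual-function boundaries and -0.21 for 1932 at no loop anchor. The members had the lower median in each class, by amounts that differed between classes. The classes were cut on the -auxin value by which the change is divided, which itself shifts the change within a class. Groups may also differ in strength inside a class, so the comparison does not remove the difference in strength.

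The authors sorted all boundaries into 5 clusters by their course over the maps, and the members filled mainly those with lost strength. The clusters were made from the same strengths, so they restate the response by another measure. Cluster1 held 339 members, 33.4% (30.6 to 36.4), against 20.4% of all boundaries, and the median strength of these members in mid-G1 was 0.624 without auxin and 0.179 with auxin. Cluster2 held 491, 48.4% (45.4 to 51.5), against 31.9%, with 0.893 without and 0.509 with auxin. Cluster3, whose members hardly differed between treatments (0.695 and 0.648), held 165, 16.3% (14.1 to 18.7), against 27.1%. Cluster4, with medians of 0.322 without and 0.532 with auxin, held 19 members, 1.87%, against 9.25%. Cluster5, whose median mid-G1 strength without auxin is 0.0738 over all boundaries, held 0 of the 1014 members, which allows a share of up to 0.296%, against 11.3% of all boundaries. The authors regarded most boundaries of cluster5 as spurious and set them aside. They are kept here among all boundaries, and 708 of the 719 lay at no loop anchor. Without them the mid-G1 difference of the members from no loop anchor was -0.58.

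**Figure D3:**
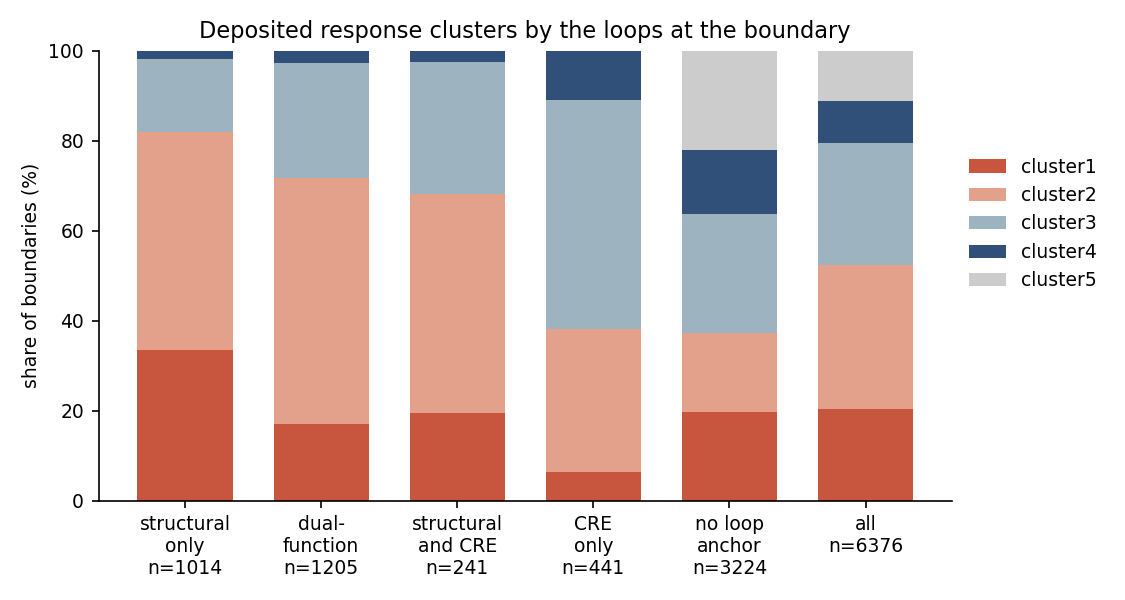
Share of boundaries (vertical axis, percent) in each of the 5 deposited clusters, for boundaries grouped by the loops at them. Cluster1 holds 33.4% of the members, 17.1% of dual-function boundaries and 6.35% of boundaries at CRE anchors only, while cluster3 holds 16.3%, 25.6% and 51.0%.

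The loops of the members were described next. The members held an anchor of 1811 of the 4837 structural loops, 501 members had 1 such loop, the median was 2 and the most was 9. For each member the structural loop with the highest mid-G1 -auxin strength was taken. The median strength of these loops without auxin was 1.10, 1.87, 2.45 and 3.07 from prometaphase to mid-G1, and with auxin it was 1.01, 1.19, 1.26 and 1.35. The ratio 1 stands for the expected contact level. The median log2 change of the loop was -1.14 in mid-G1, and 1006 of the 1014 loops were weaker. At 606 members the strongest loop was weaker by at least 2-fold, and at 291 of these the boundary was not. A loop picked for its -auxin value tends to be lower with auxin by that choice alone, and nothing is read from these counts about the members. Over all 4837 structural loops the median change was -0.87, 97.3% were weaker and 39.6% were so by 2-fold.

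Members with more structural loops were stronger without auxin and had the larger median change with auxin, while their strengths with auxin lay closer together. At 965 members no structural loop was found with auxin, so the number of loops is mostly read from the -auxin maps. Grouping by it favours a high -auxin value and a lower ratio. The median mid-G1 -auxin strength was 0.650 for the 501 members with 1 loop, 0.760 for 254 with 2, 0.843 for 122 with 3, 0.986 for 69 with 4, 1.04 for 40 with 5 and 1.23 for 28 with 6 or more. With auxin the medians of the same sets were 0.365, 0.420, 0.424, 0.451, 0.404 and 0.491. The median change was -0.78 ± 0.25 with 1 loop, -0.87 ± 0.32 with 2, -0.90 ± 0.50 with 3, -1.14 ± 0.67 with 4, -1.34 ± 0.59 with 5 and -1.42 ± 0.42 with 6 or more (SD of the chromosome medians). Each step between neighbouring sets was smaller than these SDs. The share weaker by 2-fold was 38.3% with 1 loop, 72.5% with 5 and 64.3% with 6 or more. The quartiles of neighbouring sets overlapped widely, for example -1.40 to -0.36 with 1 loop and -1.39 to -0.48 with 2. With 4 loops they were -1.73 to -0.64. Across members the Spearman correlation of the change with the number of loops was -0.18 and that of the -auxin strength with the number of loops 0.30.

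**Figure D4:**
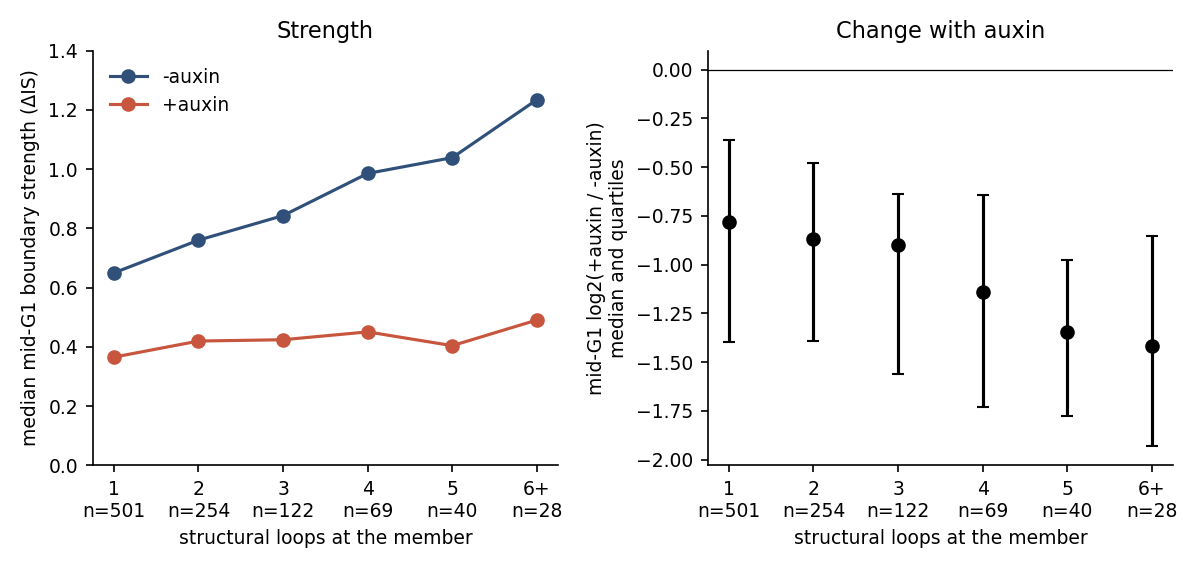
Members grouped by their number of structural loops: median mid-G1 strength (ΔIS) without and with auxin on the left, and median and quartiles of log2(+auxin / -auxin) in mid-G1 on the right. The -auxin median goes from 0.650 with 1 loop to 1.23 with 6 or more, the +auxin median from 0.365 to 0.491.

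The order by number of loops was also seen within these strength classes, except in the weakest. The classes have the limit given above, and strength still differed inside them. In the strongest class the median without auxin was 0.999 with 1 loop, 1.05 with 2 or 3 and 1.19 with 4 or more. Among members in the strongest of the 3 classes above, the median change was -0.76 for 205 with 1 loop, -0.87 for 205 with 2 or 3 and -1.21 for 104 with 4 or more. In the middle class it was -0.82, -1.001 and -1.28, for 235, 153 and 32 members. In the weakest class it was -0.74 for 61 members with 1 loop and -0.75 for 18 with 2 or 3, and 1 member had 4 or more. The change itself had hardly any relation to the strength of the member without auxin, with a Spearman correlation of -0.04.

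A member can end loops that run to one side or to both. The 239 members with loops on both sides had a median strength of 0.889 without and 0.412 with auxin and a median change of -1.16 ± 0.25. The 379 members at left anchors only had -0.82 ± 0.32, and the 396 at right anchors only -0.85 ± 0.19. The left and right sets differed by less than their spread. With the number of loops held at 3, the median change was -1.13 for 70 members with loops on both sides and -0.77 for 52 with loops on 1 side. With 2 loops it was -0.95 for 66 and -0.86 for 188. Left and right follow the chromosome coordinate.

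Members whose loops came early were stronger boundaries. A structural loop was first found without auxin at ana/telophase at 265 members, in early-G1 at 384 and in mid-G1 at 360. Their median mid-G1 -auxin strength was 1.04, 0.744 and 0.592 in that order, and their median change was -0.98 ± 0.21, -0.89 ± 0.27 and -0.81 ± 0.26, which differed by less than the spread over chromosomes. At the remaining 5 members no structural loop was found without auxin, and these had a median change of -0.28 ± 0.34. At 49 members a structural loop was also found with auxin. They were picked by the +auxin maps, so their values are a description, with a median strength of 0.626 with auxin against 0.386 for the 965 others. Their median change of -0.68 ± 0.73 differed from the -0.90 ± 0.18 of the others by less than its spread.

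The change of a member followed that of its strongest loop only weakly. The Spearman correlation in mid-G1 was 0.26 and Pearson's r 0.24 over 1014 members, both from the same maps. In 4 classes of equal size by the loop's -auxin strength, the median change of the boundary was -0.63 ± 0.20 in the lowest class (loops of 0.626 to 2.24), -0.89 ± 0.24 and -0.97 ± 0.40 in the next, and -1.08 ± 0.21 in the highest (3.91 to 10.1). At 572 members the far anchor of a structural loop also lay at a boundary, and 200 pairs of members were joined by a loop. In 44 of these pairs both members were weaker by 2-fold in mid-G1, in 57 neither was, and in 99 one was, and the correlation between the ends of a pair was 0.09. Members that share a loop are not independent of each other.

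The members lay about as far from gene starts as all boundaries, and farther than dual-function boundaries and those at CRE anchors only. The labels favour the greater distance, since dual-function and CRE loops hold a CRE at each anchor by definition and CREs include promoters. Nothing is read from that contrast about the members. The start of a protein-coding gene lay in the bin of 98 members, 9.66% (8.00 to 11.6), against 25.1% (22.8 to 27.7) of dual-function boundaries, 18.4% (15.0 to 22.2) of those at CRE anchors only, 6.70% (5.89 to 7.62) of those at no loop anchor, and 765 of the 6376 boundaries in all. The median distance to the nearest gene start was 32.5 kb for members, near the 31.9 kb of all boundaries. It was 11.4 kb for dual-function boundaries and 79.6 kb for boundaries at no loop anchor. A protein-coding gene overlapped 57.9% of the members' bins and 51.6% of all boundaries' bins. Their median GC content was 44.2%, between 46.1% for dual-function boundaries and 40.5% for those at no loop anchor. The 98 members with a gene start had a median change of -0.80 ± 0.46, within the spread of the -0.90 ± 0.18 of the 916 others.

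The members that kept their strength had fewer loops. Those of cluster3 had a mean of 1.58 structural loops, 10.3% had a loop by ana/telophase and the median strength of their strongest loop was 2.56. Those of cluster1 had 2.18, 25.4% and 3.25, and those of cluster2 had 2.08, 33.0% and 3.13. The median log2 change of the strongest loop was -0.98 for cluster3 members, -1.27 for cluster1 and -1.09 for cluster2. These loops were picked for their -auxin value, which favours a lower value with auxin in each cluster. The 19 members of cluster4 had a mean of 1.11 loops with a median longest loop of 130 kb, against 450 kb in cluster1.

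The motif was common at the members. The rule favours this, since a structural loop has CTCF and cohesin at both anchors by definition. Within 15 kb of the midpoint CCNNNAGGNGGC occurred at 676 members, 66.7% (63.7 to 69.5). It occurred at 77.0% (74.6 to 79.3) of dual-function boundaries, 55.8% of those at CRE anchors only, 42.8% (41.1 to 44.6) of those at no loop anchor and 44.9% of the 85033 windows of 30 kb that tile the genome. With 1 more base fixed (CCANNAGGNGGC, a subset of the matches above) it occurred at 44.4% of members and 22.3% of these windows. A match is a run of letters and not a bound site. The members also had a higher GC content than boundaries at no loop anchor, as given above, and its part in these shares was not tested.

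The strand of the matches followed the side of the loop. Within 5 kb of the anchor of the strongest loop, 190 of 285 matches, 66.7% (61.0 to 71.9), were on the plus strand at the 497 left anchors, and 188 of 289, 65.1% (59.4 to 70.3), on the minus strand at the 517 right anchors. Around the midpoints of the 775 members with loops on 1 side, 527 of 903 matches within 15 kb, 58.4% (55.1 to 61.5), faced the loop. The density of matches facing the loop was 18.5 and 19.7 per 100 left anchors in the 5 kb before and after the anchor midpoint, whereas matches facing away stood at 9.26 and 9.86.

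**Figure D5:**
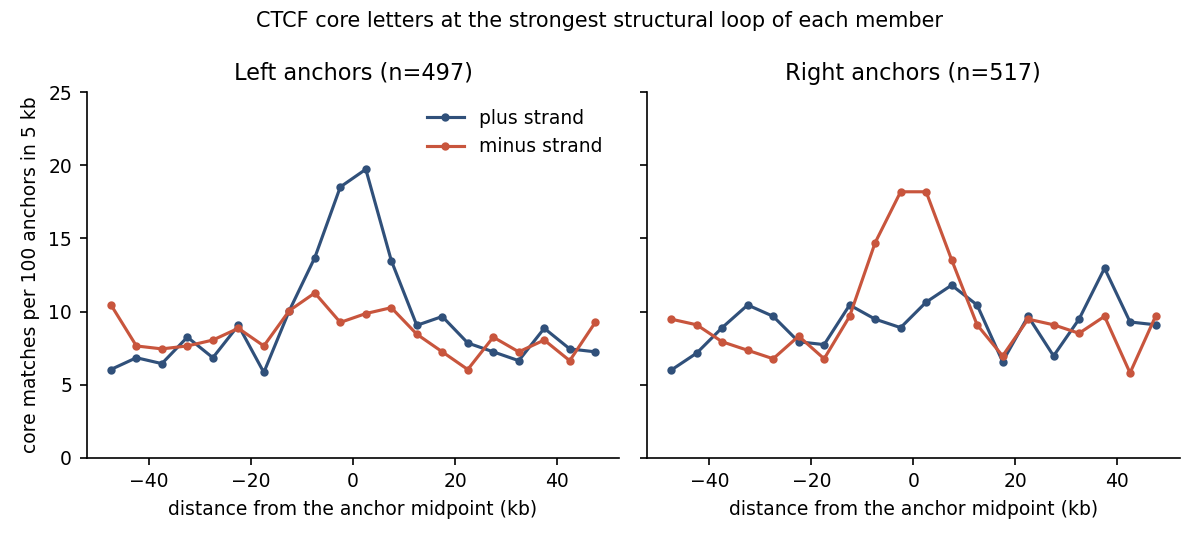
Matches to the motif per 100 anchors in windows of 5 kb (vertical axis) against distance from the anchor midpoint in kb, at the left and right anchors of the strongest structural loop of each member, by strand. The plus strand reaches 19.7 at left anchors and the minus strand 18.2 at right anchors, while the other strand lies between 5.996 and 13.0 over the whole range shown.

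The same was counted for single loops with a nearest match within 5 kb at both anchors. Of 397 such structural loops at members, 175, 44.1% (39.3 to 49.0), had the matches facing each other, 174 had them on the same strand and 48, 12.1% (9.24 to 15.7), facing apart. The 659 such structural loops elsewhere had close shares, 42.8% (39.1 to 46.6) facing each other and 11.1% (8.90 to 13.7) facing apart. It was 36.3% (33.0 to 39.7) and 13.7% (11.5 to 16.2) for 790 dual-function loops, and 29.7% (25.9 to 33.9) and 22.0% (18.6 to 25.8) for 501 CRE loops. Loops at members with facing matches had a median mid-G1 -auxin strength of 2.83, against 2.20 for those facing apart. The median change of the boundary itself was -0.87 for 323 members with matches facing the loop only, -0.86 for 184 with matches facing away only, -0.85 for 239 with both and -0.93 for 268 with no match within 15 kb of the anchor.

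Single members were named from the 752 with a mid-G1 -auxin strength of at least 0.5, and those of them with the lowest change ended near 0 with auxin. The boundary in an intron of Osbpl9, an oxysterol-binding protein (chr4:108850001-108860000), had 0.0198, 0.179, 0.409 and 0.567 without auxin, and 0.108, 0.0224, 0.0146 and 0.0116 with auxin. That over an exon of Sdccag8, a centrosomal protein (chr1:178800001-178810000), had 0.137, 0.366, 0.737 and 0.817 without auxin, and 0.0416, 0.0249, 0.0434 and 0.0200 with auxin. That over an exon of Spata18 (chr5:74050001-74060000) had 0.118, 0.333, 0.655 and 0.822 without auxin, and 0.0476, 0.0367, 0.0429 and 0.0214 with auxin. None of the 3 had more strength with auxin in mid-G1 than in prometaphase, and their log2 changes were -5.61, -5.35 and -5.26. These ratios rest on +auxin values near 0 and their size is uncertain. The filter on the -auxin value tilts counts toward weaker, so they are given beside all boundaries that passed it. Of the 752 members, 683, 90.8%, were weaker at all 3 post-mitotic stages and 17, 2.26%, stronger, against 79.4% and 5.87% of 3185 boundaries.

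Of these 17 members, the one with the highest mid-G1 change lay over an exon of Slc39a8, a zinc and manganese transporter (chr3:135550001-135560000), with 0.0927, 0.276, 0.436 and 0.595 without auxin and 0.138, 0.438, 0.947 and 0.919 with auxin. It has 1 structural loop, whose strength was 1.59 without and 1.45 with auxin. The boundary over an exon of Plxnb1, a semaphorin receptor (chr9:109020001-109030000), had 0.533 without and 0.729 with auxin in mid-G1, and its loop had 1.71 and 0.558. That over an exon of Trappc8, a part of a vesicle tethering complex, had 0.764 and 1.03, and its loop had 2.25 and 1.31. Their log2 changes were 0.63, 0.45 and 0.43. These boundaries were picked for higher strength with auxin and their loops for the highest -auxin value. Of all structural loops 97.3% were weaker with auxin, so nothing is read from the contrast of boundary and loop. Chromosome 3 carries a translocation in this line, and without it the median mid-G1 change of the members was -0.89.

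The strongest members were picked by their mid-G1 -auxin value, so a lower value with auxin is largely set by that choice. With auxin they stayed above the member median of that map. The boundary 68.9 kb from the start of Htr4, a serotonin receptor, had 2.18 without auxin in mid-G1 and 0.743 with it. That 34.4 kb from the start of Hmcn1, an extracellular matrix protein, had 2.16 and 1.20, and that 91.2 kb from the start of Galnt1, an enzyme of protein glycosylation, had 2.14 and 1.31. All 3 were near 0.1 in prometaphase without auxin (0.116, 0.119 and 0.0665) and at about 1 by ana/telophase (0.967, 1.16 and 1.11). Their mid-G1 log2 changes were -1.55, -0.85 and -0.71.

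The 3 members with 9 structural loops, whose motif matches are printed above, were all weaker by more than 2-fold in mid-G1. The boundary over an exon of Rabgap1l, a regulator of Rab proteins, had 1.32 without and 0.480 with auxin. That over an exon of Ece1, the endothelin-converting enzyme, had 1.38 and 0.468. That 127 kb from the start of Nav2, a neuron navigator gene, had 1.06 and 0.198, and its strongest loop had 5.20 and 1.30. Members near the median change included the boundary 86.0 kb from the start of Klf14, with 0.0930, 0.412, 0.748 and 0.785 without auxin and 0.0708, 0.148, 0.456 and 0.424 with auxin, that over an exon of Skap2, an adaptor protein, with 0.598 and 0.324 in mid-G1, and that in an intron of Rspo3, a Wnt agonist, with 0.573 and 0.311.

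Genes of erythroid cells and of the Hox clusters were looked up because the line is erythroid and Hox clusters are known sites of CTCF boundaries. Of 31 erythroid genes, 13 had a boundary within 50 kb of their start and 1, 3.23%, had a member there. Over all 22350 protein-coding genes 38.1% had a boundary and 5.63% a member within that distance. This was Ank1, the ankyrin of the red cell membrane, with a member over an exon of Myst3, a histone acetyltransferase gene, 40.3 kb from its start (chr8:24040001-24050000). Its strengths were 0.0684, 0.387, 0.626 and 0.779 without auxin and 0.0667, 0.273, 0.458 and 0.4996 with auxin, a mid-G1 log2 change of -0.64. Of 39 Hox genes, 21 had a boundary within 50 kb and 13 had a member, 33.3%, but these were 2 members in all, since Hox genes lie in clusters and neighbours share a member.

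The Hoxb member lay 7.77 kb from the start of Hoxb9 (chr11:96120001-96130000), with 0.132, 0.541, 0.957 and 1.15 without auxin and 0.0195, 0.154, 0.188 and 0.304 with auxin. The Hoxd member lay over Hoxd10 and Hoxd11 and held the start of Hoxd10 (chr2:74520001-74530000), with 0.0412, 0.272, 0.399 and 0.608 without auxin and 0.0362, 0.0341, 0.0522 and 0.158 with auxin. Both were in cluster1, had structural loops on both sides (6 and 3) and were weaker at all 4 stages, with mid-G1 log2 changes of -1.92 and -1.95. Both genes encode homeodomain transcription factors that set position along the body axis, and no expression was measured in the tables used here.

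The limit of 20 kb was not a step in the data. The 245 members with a structural anchor at the midpoint itself had a median change of -0.86, and the 230 at exactly 20 kb had -0.94. The 216 boundaries just outside, at 22.5 to 30 kb from a structural anchor and away from dual-function and CRE anchors, had -0.92. Median mid-G1 -auxin strength was 0.878, 0.731 and 0.580 in that order.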

How the data were processed

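In situ Hi-C of G1E-ER4 cells was mapped by the authors to mm9 with Bowtie2 and HiC-Pro, and the replicates of a condition were merged. The authors called boundaries on balanced 10 kb maps with rGMAP. Those from the -auxin maps were moved to the local insulation minimum in mid-G1 without auxin, and boundaries found only with auxin were added afterwards. Boundary strength was deposited as a signal of 0 or more. Loop strength was deposited as a ratio, observed over local background contacts, for loops called with a modified HICCUPS at 10 or 25 kb. Loop categories, stages of detection and clusters are deposited labels.

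The members and lists used here were chosen with earlier results of these data known. Changes are log2(+auxin / -auxin) with no pseudocount. 1 boundary, not a member, had a value of 0 in some map and gives no ratio there. The main boundary groups and most subsets of members are given as medians with the SD of chromosome medians, and the main shares with 95% Wilson intervals, both descriptive. Medians within strength classes, clusters and motif classes have no SD. The upper limit beside a count of 0 is 3 counts of the total. No test between treatments was run, since the tables hold 1 merged value per condition. Maps of single replicates were not analysed here. Depth is unknown from these tables.

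Motifs were searched on NCBIM37, which is mm9, and gene starts are those of 22350 protein-coding genes of GENCODE vM1. Of 15 named boundaries looked up for a match at the anchor, 5 had none within 15 kb, 4 had the nearest in a UTR, which is not printed, and 6 are printed. Named boundaries are, among members with mid-G1 -auxin strength of at least 0.5, the 3 lowest and the 3 highest in mid-G1 change with 1 direction at 3 post-mitotic stages, the 3 nearest the median, the 3 strongest, the 3 with most loops, and members within 50 kb of a listed gene. Python 3.11.15, numpy 2.4.6, pandas 2.3.3, scipy 1.17.1 and matplotlib 3.10.9 were used, and the rule and the motif search were tested on simulated data. Alternatives covered the anchor distance, the loops used, chromosome 3, filters on strength, pseudocounts, and the motif window.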

Additional observations from a re-analysis of the deposited data

How the results depend on the processing

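No replicate could be left out and no paired analysis was possible because the 2 tables used here hold 1 merged value per condition, and maps of single replicates were not analysed here. The number of members ran from 688, with uncategorised anchors also left out, to 1057, with an anchor distance of 30 kb. Of 165 alternative values of the 19 other results, 142 stayed within the spread over chromosomes or the counting interval. No median change, difference or correlation changed sign. Leaving out cluster5 could not move the values of the members, since it holds none of them, so part of this tally was fixed in advance. With an anchor distance of 10 kb, cluster1 held 30.2% and cluster3 18.7% of the members, and the difference from boundaries at CRE anchors only was -0.54. With 30 kb, cluster1 held 36.9% and cluster2 44.8%. With a mean strength of at least 0.2, 39.7% of the members were weaker by 2-fold in mid-G1, cluster1 held 26.3% and cluster2 53.6%. With a pseudocount of 0.05 the share weaker by 2-fold was 39.7%, and with 0.1 it was 33.5%, with median changes of -0.51 at ana/telophase and -0.61 in early-G1. Less each member's prometaphase change, these medians were -0.54 and -0.60. Among boundaries of the weakest of 3 strength classes the members differed by -1.10 from dual-function boundaries, by -0.56 from those at structural and CRE anchors and by -1.73 from those at CRE anchors only. Among those of the strongest class they differed by -0.46 from CRE anchors only and by -0.35 from no loop anchor. The motif occurred at 31.7% of members within 5 kb, at 73.6% around the structural anchor, and in its stricter form at 44.4%, with 61.8% of the stricter matches facing the loop. A smaller window or a stricter motif holds fewer matches by construction. The cause of the other shifts was not tested. The merging of replicates and the unknown depth limit the precision of a single boundary.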
